A study of Mus musculus with 8 samples.

Results

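The 10 genes described here are Tent5a, Lpgat1, Phldb2, Rras2, Car2, Pros1, Serpine2, Slc9a2, Lrp11 and Mid1, 10 of the 11911 genes listed with counts. They were chosen by the difference between the genotypes itself, because all or nearly all Tdrd3-deleted libraries lay below the controls. Their lower values in the deleted cultures are therefore a description, and no p-value of that difference is given for any of them as evidence. The data were RNA-seq counts of iTreg cultures, that is, CD4+ T cells driven toward a regulatory T cell state in a dish. Naïve CD4+ cells from mouse spleen had been stimulated for 36 hours with TGF-β, anti-CD3 and anti-CD28, with anti-IFN-γ and anti-IL-4 to block other T cell fates. The 4 control libraries, labelled WT, came from Foxp3YFP-Cre mice, which carry Cre recombinase and YFP at the Foxp3 locus. The 4 libraries labelled KO came from Tdrd3fl/fl/Foxp3YFP-Cre mice, which carry the same Cre and in addition floxed Tdrd3 alleles. Cre is thus shared by both genotypes and is active only once a cell transcribes Foxp3, so cells of the KO cultures that had not turned on Foxp3 could keep Tdrd3. Replicates came from independent mice according to the methods. For these cultures neither the age of the mice nor a sort for YFP is given in the sources used here.

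TDRD3 is a Tudor domain protein that reads methylated arginines on histones and on RNA polymerase and acts as a coactivator of transcription. FOXP3 is the transcription factor that defines regulatory T cells, and TGF-β together with T cell receptor and IL-2 signals turns it on in naïve cells. The 10 genes do not form a pathway. They fall into RNA and lipid enzymes (Tent5a, Lpgat1), proteins of the microtubule system (Phldb2, Mid1), a RAS-family GTPase (Rras2), regulators of pH (Car2, Slc9a2), secreted regulators of coagulation proteases (Pros1, Serpine2) and a membrane protein of the LDL receptor family (Lrp11).

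Total counts lay between 13258239 and 16001676 per library and overlapped between genotypes (p = 0.743 by exact permutation, two-sided). Tdrd3, counted over the whole gene so that the floxed part is not seen separately, had 9.95 to 18.8 normalized CPM (a library's counts scaled to a common depth, as edgeR computes it) in the WT libraries and 10.7 to 13.7 in the KO libraries. The lowest of the 8 values was that of the library labelled WT replicate 3, so this gene does not separate the labels. On average it was lower in KO, at 12.1 against 15.4 CPM. Its log2 fold change, KO minus WT, was −0.35 (standard error 0.155). The study reports the loss of Tdrd3 by immunoblot and qPCR in YFP-positive spleen cells. It also reports lower Tdrd3 and Foxp3 mRNA by qPCR in iTreg cells, and lists Tdrd3 among the most down-regulated genes of its RNA-seq. Foxp3 had 93.8 to 122 CPM in WT and 77.2 to 105 in KO libraries, which overlap. Still, 3 of the 4 KO libraries were below every WT library. The log2 fold change of Foxp3, KO minus WT, was −0.31 (standard error 0.0880). The summed CPM of 6 genes typical of regulatory T cells (Foxp3, Il2ra, Ctla4, Ikzf2, Tnfrsf18, Itgae) was 3339 to 3493 in WT and 3149 to 3260 in KO (p = 0.0286 by exact permutation, the lowest value possible with 4 against 4 libraries). In bulk RNA fewer Foxp3-expressing cells and less RNA per cell cannot be told apart, and the part of this difference in the values of the 10 genes was not tested. By flow cytometry the study reports a lower percentage of Foxp3-positive cells in Tdrd3-deleted iTreg cultures, at a later time than these libraries. Most of the sum was Il2ra, the IL-2 receptor alpha chain, at 2179 to 2370 CPM in WT and 2025 to 2169 in KO. Ctla4, an inhibitory receptor, had 543 to 590 CPM in WT and 558 to 622 in KO, and 0 of the 6 genes passed an adjusted p of 0.05 in edgeR. T cell markers were high in every library, where 7 of the 10 were among those analysed, with a summed CPM of 1910 to 2037. Of the markers of other cells, 2 of 10 myeloid genes (Lyz2 and Cd68, summed CPM at most 2.11), 3 of 6 B cell genes (at most 3.71), 1 of 9 erythroid and megakaryocytic genes (Itga2b, at most 2.25) and 1 of 4 NK cell genes (Klrk1, at most 1.43) were among the genes analysed here, and Lyz2 was at 0 in 6 libraries. The 2 CD8 genes summed to 7.72 to 21.8 CPM in WT libraries, highest in the library labelled WT replicate 3, and to 6.68 to 8.35 in KO libraries. Cd8a had 11.3 CPM in the library labelled WT replicate 3 and 0.436 to 1.37 in the others. Cd8b1 had 5.64 to 10.5 CPM over all libraries. The 6 of 11 epithelial and stromal genes among those analysed summed to 27.0 to 33.6 CPM in WT and 22.9 to 31.6 in KO, nearly all of it Pecam1, which T cells also express, while Epcam stayed at or below 0.701 CPM and Krt18 at or below 0.752. In each of these lists of other cells the genotypes overlapped (exact permutation p from 0.0857 for CD8 genes to 1.00 for myeloid genes).

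All 10 genes passed the filter on low counts. In 9 of them every KO library was below every WT library, a state that 2.63% of the 11317 tested genes showed. An adjusted p below 0.05 with a lower value in KO was reached by 8 of the 10, against 0.203% of tested genes, with edgeR (quasi-likelihood F-test, Benjamini-Hochberg). Both counts restate how the genes were picked, and nothing is read from them. Among the 9, the narrowest gap as a ratio was that of Serpine2, whose lowest WT library had 30.6 CPM and whose highest KO library had 29.2, a ratio of 1.05. Lrp11 lay just outside, since its KO replicate 2 had 5.58 CPM and its WT replicate 1 had 5.13. The median log2 fold change, KO minus WT, was −0.56 over the 10 genes and 0.00 over all tested genes.

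**Figure D1:**
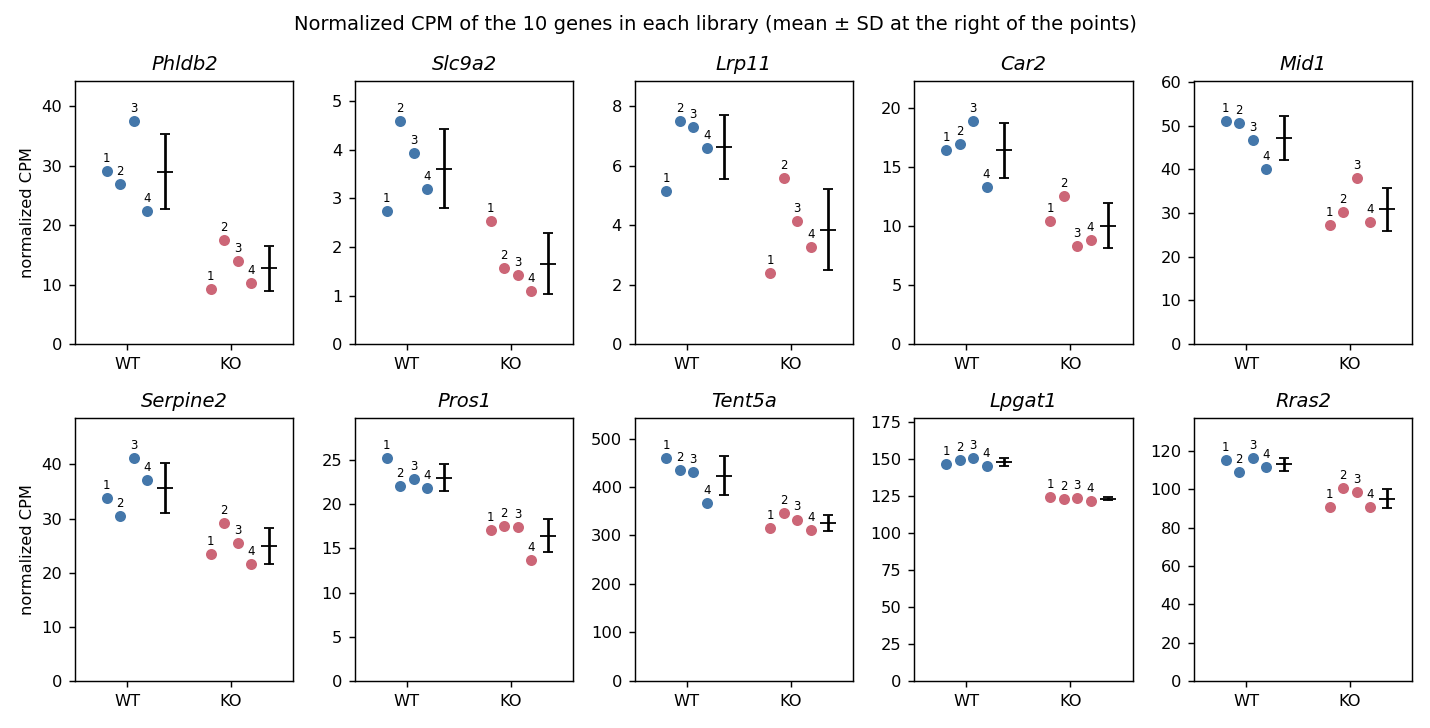
Normalized CPM of each of the 10 genes, 1 panel per gene and ordered by log2 fold change, with the y axis starting at 0. Points are single libraries with their replicate number (blue WT, red KO, 4 each), and the bar beside them is the mean ± SD. WT and KO points do not overlap in any panel except that of Lrp11, where KO replicate 2 (5.58 CPM) is above WT replicate 1 (5.13 CPM).

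Promoter sequence was available in RefSeq for 8 of the 10 genes, with 12 listed transcription starts in all. Slc9a2 and Car2 were not matched. The windows run from 250 bases before each start to 50 after it, and the sequences, listed under build GRCm38.p6, were each matched exactly to a single place on the named chromosome of GRCm39. They were searched on both strands for TGTTTAC, the core bound by FOXO factors, GGGTGTGG, a core bound by Krüppel-like factors, and TTCNNNGAA, the spaced palindrome bound by STAT factors. The matches did not overlap each other. The study examines FOXO1 and KLF2, and STAT5 carries the IL-2 signal. Mid1 held TGTTTAC at 1 of its 3 starts, 115 bases before it. Tent5a held GGGTGTGG at 1 of its 2 starts, 229 bases before it, and Pros1 held TTCNNNGAA 92 bases before its start. Over all 32851 promoters listed, 3.65% held TGTTTAC, 3.56% held GGGTGTGG and 8.30% held TTCNNNGAA, and 1 of the 12 windows of the 10 genes held each. In the 11434 windows of tested genes these shares were 2.54%, 3.70% and 6.83%. The median GC content was 69.5% in the 12 windows, 61.0% in the windows of tested genes and 52.7% in all listed promoters. Genes with several starts count more than once in these figures. A match of letters is only a description and is no binding site. Sequence is printed for the 3 promoters with a match, so that each motif can be seen in its setting, along the strand of the gene and with the motif in capitals. For Mid1 the 250 bases before the start are given, for Tent5a the 52 bases that lie before its annotated exons, and for Pros1 the 29 bases around the match, which falls in an exon of longer annotated transcripts. Phldb2 held none of the motifs in its only listed window, chr16:45664742-45664991 (GRCm39). That window lies inside the gene, whose upstream end on the minus strand is at 45773961 in the count data. The sequence at that end was not searched. The only listed window of Serpine2, chr1:79836383-79836632 (GRCm39), also held none of the motifs and also lies inside its gene. The upstream end of Serpine2 on the minus strand, at 79838897, was not searched either.

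Mid1, chrX:168467945-168468194 (GRCm39, plus strand): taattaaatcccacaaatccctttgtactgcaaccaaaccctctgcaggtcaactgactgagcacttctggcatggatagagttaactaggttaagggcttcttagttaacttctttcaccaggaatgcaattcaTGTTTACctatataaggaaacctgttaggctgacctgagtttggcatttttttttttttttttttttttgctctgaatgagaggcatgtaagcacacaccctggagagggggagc

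Tent5a, chr9:85209402-85209453 (GRCm39, minus strand): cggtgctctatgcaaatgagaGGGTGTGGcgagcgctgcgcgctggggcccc

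Pros1, chr16:62674568-62674596 (GRCm39, plus strand): tgcgaagagcTTCCAGGAAatgtcccagt

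Tent5a (ENSMUSG00000032265, chr9:85202492-85209401, minus strand, GRCm39) encodes a cytoplasmic poly(A) polymerase that lengthens the tails of messenger RNAs, a function described for mRNAs of secreted proteins. It was the most abundant of the 10 genes. WT replicates 1 to 4 had 460, 436, 430 and 366 CPM and KO replicates 1 to 4 had 315, 346, 333 and 311. WT replicate 4 was the lowest control and still above the highest KO library. WT averaged 423 ± 40.1 and KO 326 ± 16.2 CPM (SD, n = 4 each), and the log2 fold change was −0.37 with a standard error of 0.0562, or 22.9% lower. All 8 deposited values of Tent5a were fractional, as can arise when estimated counting divides reads among genes. The tested genes of the list of poly(A) and uridylyl polymerases numbered 10, none passed the adjusted threshold in edgeR or DESeq2, and 2 were lower at an unadjusted p under 0.05. Their median log2 fold change was 0.01. Of all 11317 tested genes, 556 were lower and 496 higher at an unadjusted p under 0.05. The paralog Tent5c, known as a brake on B cell and plasma cell growth, had a log2 fold change of −0.27 (standard error 0.113) and an edgeR adjusted p of 0.446.

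Lpgat1 (ENSMUSG00000026623, chr1:191449946-191516367, plus strand) encodes an acyltransferase of the endoplasmic reticulum that reacylates lysophospholipids. It had 147, 150, 151 and 145 CPM in WT replicates 1 to 4 and 124, 123, 124 and 122 in KO replicates 1 to 4. The libraries of a genotype lay within a few CPM of each other, and relative to the mean this was the tightest spread of the 10 genes. WT averaged 148 ± 2.5 and KO 123 ± 1.09 CPM (SD, n = 4 each), with a log2 fold change of −0.27 (standard error 0.0406), or 16.8% lower. Of 19 tested genes of phospholipid acylation and phosphatidylglycerol synthesis none passed the adjusted threshold in edgeR or DESeq2, 1 was lower and 1 higher at an unadjusted p under 0.05, and the median log2 fold change was 0.03.

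Phldb2 (ENSMUSG00000033149, chr16:45566606-45773961, minus strand) encodes LL5β, a phosphoinositide-binding protein of the cell cortex that helps anchor microtubule ends through CLASP proteins. On the log2 scale its difference was the largest of the 10 in the fit of all 8 libraries, but Slc9a2 exceeded it without KO replicate 1 (−1.40 against −1.05), without WT replicate 1 (−1.24 against −1.18) and without the library labelled WT replicate 3 (−1.08 against −1.03). WT replicates 1 to 4 had 29.1, 27.0, 37.5 and 22.4 CPM and KO replicates 1 to 4 had 9.29, 17.5, 14.1 and 10.3. The highest control was the library labelled WT replicate 3, and among KO libraries replicates 2 and 3 were above 1 and 4. WT averaged 29.0 ± 6.33 and KO 12.77 ± 3.76 CPM (SD, n = 4 each), and the log2 fold change was −1.18 with a standard error of 0.165, or 55.8% lower. Its partners did not pass the test. Clasp1 had a log2 fold change of 0.04 (standard error 0.0539, edgeR adjusted p = 0.896) and Clasp2 of 0.01 (standard error 0.0447, adjusted p = 0.958). None of the 15 tested genes of cortical microtubule anchoring passed the adjusted threshold in edgeR or DESeq2, 1 was higher without adjustment (p under 0.05), and the range of log2 fold changes was −0.11 to 0.20.

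Mid1 (ENSMUSG00000035299, chrX:168468195-168773794, plus strand) encodes a microtubule-bound ubiquitin ligase of the TRIM family that directs degradation of the catalytic subunit of the phosphatase PP2A through the adaptor α4. In cytotoxic T cells it has been linked to the release of lytic granules. It had 51.0, 50.6, 46.8 and 40.1 CPM in WT replicates 1 to 4 and 27.3, 30.2, 37.95 and 28.0 in KO replicates 1 to 4. KO replicate 3 was closest to the controls and still below WT replicate 4. WT averaged 47.1 ± 5.07 and KO 30.9 ± 4.88 CPM (SD, n = 4 each), with a log2 fold change of −0.61 (standard error 0.0957), or 34.6% lower. In C57BL/6 mice the gene crosses the boundary of the region that the X and Y chromosomes share, and RefSeq lists a pseudogene copy on the Y chromosome, so its reads can match more than 1 place. All 8 of its deposited values were fractional, and its exons share 716 bases with Gm58920 on the same strand. All 8 libraries expressed Y-linked genes, with Ddx3y at 64.8 to 94.5 CPM, lowest in KO replicate 2. Of 12 tested genes linked to MID1 and PP2A none passed the adjusted threshold in edgeR or DESeq2 and 0 had an unadjusted p under 0.05. Igbp1, which encodes α4, had a log2 fold change of 0.07 (standard error 0.0644, edgeR adjusted p = 0.843).

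Rras2 (ENSMUSG00000055723, chr7:113646017-113717016, minus strand) encodes the RAS-related GTPase TC21, which binds the antigen receptors of T and B cells and carries low-level survival signals to PI3K. It had 115, 109, 116 and 112 CPM in WT replicates 1 to 4 and 90.6, 101, 98.4 and 91.1 in KO replicates 1 to 4. KO replicates 2 and 3 were again above 1 and 4. WT averaged 113 ± 3.49 and KO 95.2 ± 5.07 CPM (SD, n = 4 each), and the log2 fold change was −0.25 (standard error 0.0493), or 15.9% lower. Its close relative Rras had a log2 fold change of 0.21 (standard error 0.156, edgeR adjusted p = 0.786), and Nras, a main RAS of T cells, of 0.03 (standard error 0.0424, adjusted p = 0.899). Among 22 tested RAS GTPases and regulators none passed the adjusted threshold in edgeR or DESeq2, 3 were lower at an unadjusted p under 0.05, and the median log2 fold change was −0.02.

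Car2 (ENSMUSG00000027562, chr3:14951333-14965830, plus strand) encodes cytosolic carbonic anhydrase, which interconverts carbon dioxide and bicarbonate. The enzyme is best known from red blood cells and osteoclasts, and of the erythroid list Itga2b alone was among the genes analysed here. Car2 had 16.4, 17.0, 18.9 and 13.3 CPM in WT replicates 1 to 4 and 10.4, 12.5, 8.34 and 8.83 in KO replicates 1 to 4. WT replicate 4 and KO replicate 2 came within 1 CPM of each other. WT averaged 16.4 ± 2.30 and KO 10.0 ± 1.89 CPM (SD, n = 4 each), with a log2 fold change of −0.70 (standard error 0.136), or 38.6% lower.

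Slc9a2 (ENSMUSG00000026062, chr1:40719734-40808433, plus strand) encodes NHE2, a sodium-proton exchanger of the plasma membrane that is best known from gut epithelium. It was the scarcest of the 10 genes, with 16 to 63 counts per library, so that its values carry wide counting error. WT replicates 1 to 4 had 2.74, 4.58, 3.93 and 3.19 CPM and KO replicates 1 to 4 had 2.54, 1.57, 1.43 and 1.09. Here KO replicate 1 was the one close to the controls. WT averaged 3.61 ± 0.813 and KO 1.66 ± 0.624 CPM (SD, n = 4 each), with a log2 fold change of −1.12 (standard error 0.283), or 54.1% lower. Of 19 other tested genes of bicarbonate and proton transport none passed the adjusted threshold in edgeR or DESeq2, and 1 was lower and 1 higher at an unadjusted p under 0.05. The cytosolic anhydrase Car13 had a log2 fold change of 0.07 (standard error 0.232, edgeR adjusted p = 0.955).

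Pros1 (ENSMUSG00000022912, chr16:62674670-62749709, plus strand) encodes protein S, an anticoagulant cofactor and a ligand of the receptors TYRO3, AXL and MERTK. Activated T cells display it, and through these receptors it restrains dendritic cells. Pros1 had 25.3, 22.0, 22.9 and 21.9 CPM in WT replicates 1 to 4 and 17.1, 17.6, 17.4 and 13.7 in KO replicates 1 to 4. Controls were close together, and KO replicate 4 stood below the other KO libraries. WT averaged 23.0 ± 1.56 and KO 16.4 ± 1.86 CPM (SD, n = 4 each), with a log2 fold change of −0.49 (standard error 0.0961), or 28.7% lower. Of its receptors, Tyro3 had a log2 fold change of −0.01 (standard error 0.0740, edgeR adjusted p = 0.970) and Axl of 0.30 (standard error 0.105, adjusted p = 0.324). Axl had 61.8, 59.6, 55.2 and 79.2 CPM in WT and 86.5, 61.8, 76.5 and 89.5 in KO replicates 1 to 4, so the genotypes overlapped. None of the 10 tested genes of this list passed the adjusted threshold in edgeR or DESeq2, and Axl was the single gene with an unadjusted p under 0.05.

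Serpine2 (ENSMUSG00000026249, chr1:79771914-79838897, minus strand) encodes protease nexin-1, a secreted inhibitor of thrombin, urokinase and plasmin. It had 33.8, 30.6, 41.2 and 37.1 CPM in WT replicates 1 to 4 and 23.5, 29.2, 25.5 and 21.6 in KO replicates 1 to 4. KO replicate 2 nearly reached WT replicate 2. WT averaged 35.7 ± 4.57 and KO 24.9 ± 3.26 CPM (SD, n = 4 each), and the log2 fold change was −0.51 (standard error 0.0986), or 29.99% lower. The list of serpins and serine proteases was the only list of related genes with a gene past the adjusted threshold, 1 of 10 tested genes, where 0.265% of all tested genes passed in either direction. That gene was Serpinb9, the intracellular inhibitor of granzyme B that guards lymphocytes against their own granules. Serpinb9 had 23.8, 22.8, 23.2 and 25.2 CPM in WT and 16.9, 20.2, 16.6 and 15.7 in KO replicates 1 to 4, so that the genotypes did not overlap. It fell by 0.45 on the log2 scale (standard error 0.0914, edgeR adjusted p = 0.0438). The adjusted p was 0.0516 to 0.225 when any 1 library other than KO replicate 2 was left out, and 0.00437 without KO replicate 2. In the same list 4 genes were lower and 1 higher at an unadjusted p under 0.05, and the median log2 fold change was −0.10. Of all 11317 tested genes, 556 were lower and 496 higher at that unadjusted threshold.

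Lrp11 (ENSMUSG00000019796, chr10:7465564-7501247, plus strand) encodes a small membrane protein of the LDL receptor family whose function in T cells is not settled. It had 33 to 104 counts per library. WT replicates 1 to 4 had 5.13, 7.49, 7.29 and 6.59 CPM and KO replicates 1 to 4 had 2.40, 5.58, 4.13 and 3.26. KO replicate 2 was inside the range of the controls, and KO replicate 1 was the lowest. WT averaged 6.63 ± 1.07 and KO 3.84 ± 1.36 CPM (SD, n = 4 each), with a log2 fold change of −0.78 (standard error 0.221), or 41.6% lower. Its exons share 1173 bases with Pcmt1 on the opposite strand, and whether the authors' counting used strand is not given in the sources used here. Pcmt1, with 837 to 1140 counts, had a log2 fold change of −0.09 (standard error 0.0571). Of 16 tested genes of the LDL receptor family none passed the adjusted threshold in edgeR or DESeq2, while 3 were higher at an unadjusted p under 0.05.

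**Figure D2:**
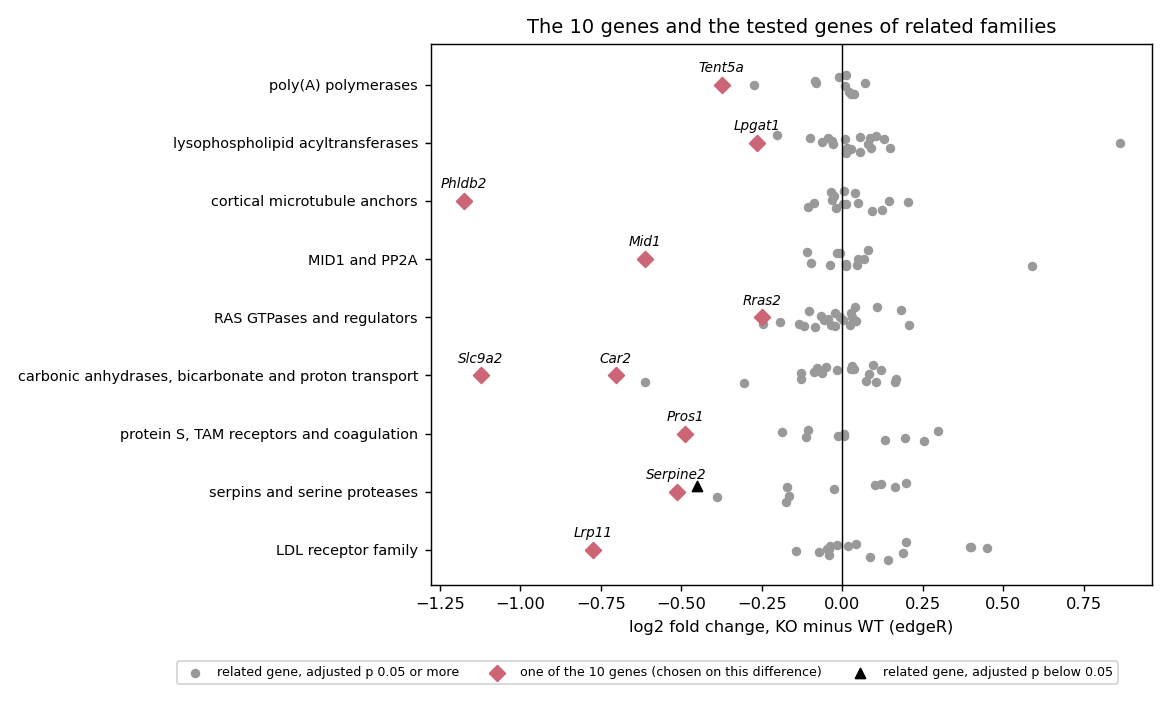
Log2 fold change, KO minus WT, of the tested genes of 9 lists of related genes (x axis, edgeR), 1 row per list. Red diamonds are the 10 genes, chosen on this difference, grey points are related genes that did not pass an adjusted p of 0.05, and the black triangle is Serpinb9 at −0.45, the single related gene that passed.

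Over all 9 lists together, 133 related genes were tested. Of these 1 passed the adjusted threshold in edgeR's test. At an unadjusted p under 0.05, 11 were lower and 8 higher, where 556 were lower and 496 higher of all 11317 tested genes. The median log2 fold change of the related genes was 0.01, and that of all tested genes was 0.00. The tested relatives named above other than Serpinb9 were picked for their roles after their values had been seen.

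In the control cultures the 10 genes covered a wide range of levels. As CPM per kilobase of annotated exon, Tent5a had 73.6 ± 6.98, Rras2 29.8 ± 0.921 and Lpgat1 17.2 ± 0.291 (SD, n = 4 WT libraries each). Mid1 followed with 6.48 ± 0.697. Car2 at 3.72 ± 0.522 and Pros1 at 3.64 ± 0.247 overlapped between libraries, and so did Serpine2 at 2.90 ± 0.371 and Phldb2 at 2.51 ± 0.547. Lrp11 had 0.855 ± 0.138 and Slc9a2 had 0.506 ± 0.114. Apart from those 2 pairs, each gene was above the next in every comparison of control libraries. Car2, at 3.02 in its lowest control library, also overlapped Serpine2 and Phldb2, which reached 3.35 and 3.24. On this scale Tent5a ranked 381 and Slc9a2 ranked 10221 of 11316 tested genes with an annotated length, so the 10 genes spread from near the top to near the bottom of the expressed genes.

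**Figure D3:**
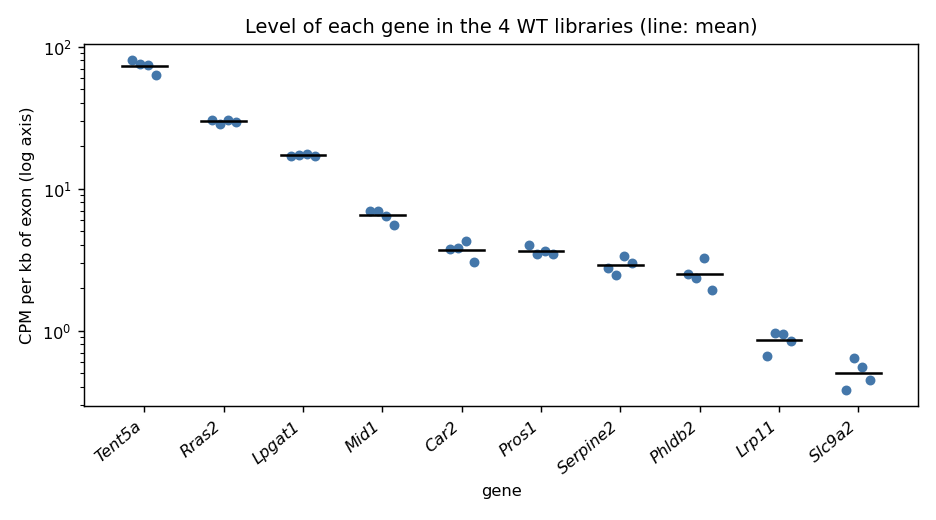
Level of the 10 genes in the 4 WT libraries as CPM per kilobase of exon (y axis, log scale), from highest to lowest mean. Points are libraries and lines are means. Tent5a is at 73.6 and Slc9a2 at 0.506. Car2 and Pros1 overlap, as do Serpine2 and Phldb2, and Car2 also overlaps Serpine2 and Phldb2.

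The KO libraries were not alike in how low the 10 genes lay. KO replicate 2 was the highest KO library in 7 of the 10 genes and the lowest in none, whereas over all tested genes it was highest in 25.5%. Among the 15 other genes called lower in KO, KO replicate 3 was the highest KO library in 7, replicate 2 in 6, replicate 1 in 2 and replicate 4 in 0, so replicates 2 and 3 led most of these genes as well. KO replicate 4 was the lowest in 5 and KO replicate 1 in 4. The median log2 ratio to the WT mean was −0.34 in KO replicate 2, −0.44 in replicate 3, −0.56 in replicate 1 and −0.75 in replicate 4, while the same median over all tested genes was 0.00 in each. In 7 of the 10 genes KO replicates 2 and 3 were the 2 highest KO libraries, which held for 19.8% of tested genes. In Foxp3 too KO replicates 2 and 3 were the 2 highest, with 105 and 93.2 CPM, against 77.2 and 78.1 in replicates 1 and 4. Among controls, WT replicate 4 was the lowest in 6 of the 10 genes and also had the least Foxp3, at 93.8 CPM. WT replicate 2 had the most Foxp3, at 122 CPM, but was the highest control in only 2 of the 10 genes. The library labelled WT replicate 3 was the highest control in 5, with 107 CPM of Foxp3, below WT replicates 1 and 2. The part of Foxp3 level or of the number of Foxp3-expressing cells in these values was not tested. Without KO replicate 2 the log2 fold change of Phldb2 was −1.38 and that of Lrp11 −1.02. Without the library labelled WT replicate 3 the log2 fold changes of the 10 genes ran from −1.08 for Slc9a2 to −0.24 for Rras2.

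**Figure D4:**
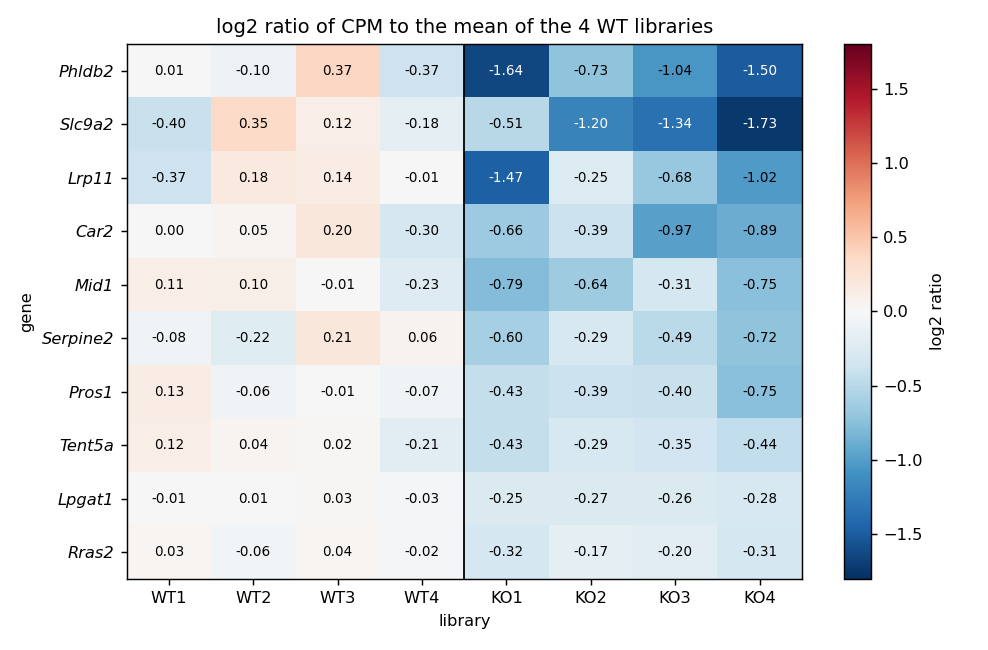
Log2 ratio of each gene's CPM (rows) in each library (columns) to the mean of the 4 WT libraries, written in each cell. All KO cells are negative, and for Phldb2 they run from −1.64 in KO replicate 1 to −0.73 in KO replicate 2.

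Variation between libraries of the same genotype was also described, although these are the same 8 values per gene by which the genes were chosen. After each genotype's mean was taken out of the log2 CPM, the median Pearson r over the 45 pairs of the 10 genes was 0.42 across the 8 libraries, and 39 pairs had an r above 0. The median over all pairs of tested genes was 0.00. The highest values were those of Phldb2 with Rras2 (0.89), Rras2 with Serpine2 (0.81) and Phldb2 with Lrp11 (0.74). Slc9a2, the gene with the fewest counts, shared least, with −0.29 against Rras2. These r values are a description. The pairs share the same 8 libraries, with the same depth, and KO replicates 2 and 3 against 1 and 4 enter many of them.

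**Figure D5:**
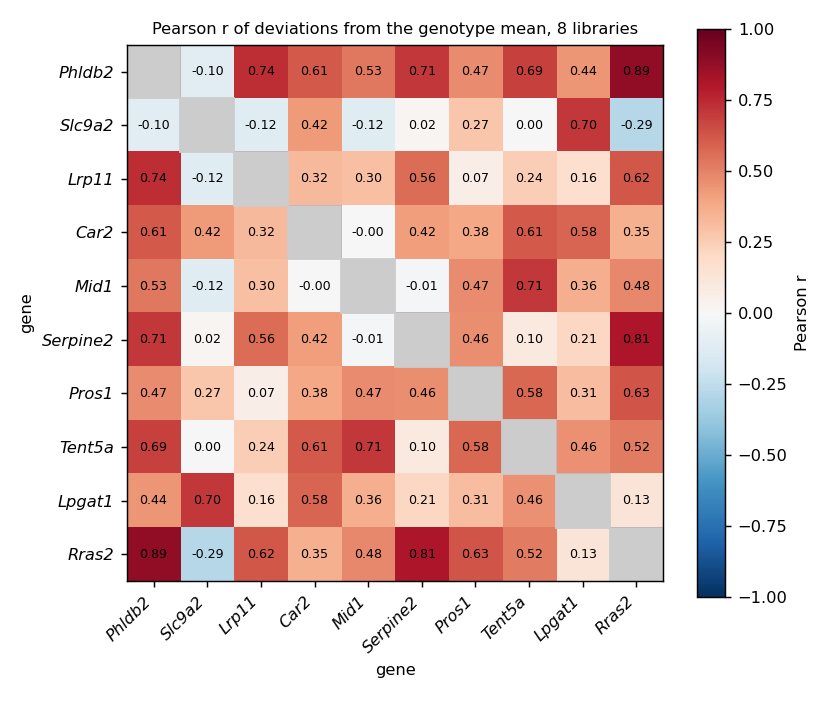
Pearson r between the 10 genes (rows and columns) of the deviations of log2 CPM from the genotype mean over 8 libraries, written in each cell. Values run from −0.29 for Rras2 with Slc9a2 to 0.89 for Phldb2 with Rras2, and most are above 0.

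By the same measure, the single gene most like each of the 10, out of 11307 others, was Macrod1 for Tent5a, Gadd45gip1 for Lpgat1, Zfp182 for Phldb2, Taf7 for Rras2, Rgs10 for Car2, Poln for Pros1, Cbfb for Serpine2, Ublcp1 for Slc9a2, Por for Lrp11 and Trp53i11 for Mid1. Their r ran from 0.957 to 0.992 over 8 libraries, each the highest of the search. None of these 10 passed the adjusted threshold between genotypes in edgeR's test, with adjusted p-values from 0.318 for Trp53i11 to 0.976 for Zfp182.

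The 10 genes lie on 7 chromosomes, none of them chromosome 14, which carries Tdrd3. Lpgat1, Serpine2 and Slc9a2 are on chromosome 1, and Phldb2 and Pros1 are on chromosome 16. The nearest tested gene on each side of each of the 10 (20 neighbours in all, at 2.77 to 1822 kilobases) included 0 that passed an adjusted p of 0.05 in edgeR's test and 1 in DESeq2. At an unadjusted p under 0.05 there were 3 of the 20, all of them lower in KO. Over all 11317 tested genes, 556 were lower and 496 higher at that threshold. The median log2 fold change of the neighbours was −0.02. The gene that passed in DESeq2 was Ulbp1, a ligand of the NK receptor NKG2D that lies beside Lrp11, with a log2 fold change of −0.31 (standard error 0.0785) and an edgeR adjusted p of 0.104.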

How the data were processed

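RNA-seq of 8 iTreg cultures, 4 WT (Foxp3YFP-Cre) and 4 KO (Tdrd3fl/fl/Foxp3YFP-Cre), was analysed, with groups and replicate numbers from the sample titles. The study's methods state 3 replicates per group and the labels give 4, and all were used. The authors depleted ribosomal RNA, aligned reads to GRCm39 with STAR 2.7.8a and quantified genes in Partek Flow by expectation-maximization, then filtered them (tools and build as in the submitters' notes and methods). The deposited values are these estimated counts, not normalized, of 11911 genes, and 43.0% are not whole. Annotation version and strand setting are not given in the sources used here.

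Counts were rounded. edgeR 4.0.16 in R 4.3.3 kept 11317 genes (filterByExpr, minimum count 10), normalized them by TMM and tested genotype with glmQLFit and glmQLFTest, two-sided, adjusting p by Benjamini-Hochberg across the tested genes. This fit was checked on simulated data. Marker sums and totals were compared by exact permutation tests over 70 arrangements on log2 values. Depth was 13258239 to 16001676 counts per library, and a floor of 3 counts equals 0.188 to 0.225 CPM (counting error only). Gene coordinates are those of the table, with the end taken as its last base. Exon lengths and overlaps came from GENCODE release M39. Log2 CPM used a prior count of 2.

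The 10 genes and all lists were chosen with earlier results of these data known. Other genes are named if they are on a related list or beside one of the 10 and passed the adjusted threshold, or as the gene most alike, and others are marked where named. Alternatives were DESeq2 1.42.0, DESeq2 size factors, library size only, no filter, at least 10 counts in every library, the replicate number as a block, and leaving out each library.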

Additional observations from a re-analysis of the deposited data

Results flagged for a closer look

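Pros1 in KO replicate 4, at 13.7 CPM, stood apart from the other KO libraries, which had 17.1 to 17.6 CPM. The gap took up 0.875 of the range of the 4 KO libraries. Of 20 groups of 4 libraries checked in this way, 2 for each of the 10 genes, 1 was set apart, and chance alone sets apart about 1 in 20. Without KO replicate 4 the log2 fold change of Pros1 was −0.41.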

How the results depend on the processing

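The log2 fold changes of the 10 genes kept their sign in all 140 combinations of gene and alternative, and none moved by more than the SD between libraries. The choice of the genes by this difference nearly fixed the sign, so nothing is read from it. An adjusted p below 0.05 was reached by 8 of the 10 in the main fit, where 23 of 11317 tested genes were called lower. Without KO replicate 1 it was reached by 3, where 5 of 11404 tested genes were called lower. Without WT replicate 1 it was also 3, where 5 of 11391 were called lower. Without KO replicate 2 it was 9, where 84 of 11415 were called lower. Slc9a2 had the widest range, −1.40 to −0.97, Phldb2 ranged from −1.38 to −1.03, Lrp11 from −1.02 to −0.61 and Rras2 from −0.28 to −0.23. Over all tested genes, 30 passed an adjusted p of 0.05 in either direction in the main edgeR fit, which is not the study's own count. This became 81 with DESeq2, and 6 (without KO replicate 1) to 162 (without KO replicate 2) when a library was left out. Related genes past the threshold numbered 1 and went from 0 to 3 when a library was left out. Neighbours past it numbered 0, with 1 under DESeq2 and 0 to 1 when a library was left out. Same-numbered libraries share only a number: the correlation of their deviations was −0.0458 to 0.0691. With the replicate block 87 genes and 1 neighbour passed. The cause of these changes was not tested. Low counts limit Slc9a2 and Lrp11 most.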
